A study of Mus musculus with 22 samples.

Results

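The aminoacyl-tRNA synthetases are the enzymes that attach each amino acid to its tRNA, and their mRNAs were described here in 22 single astrocytes from mouse cortex. The 36 genes were the rows of the deposited count table whose symbols are on a fixed list of synthetases. They comprised 20 cytosolic synthetases and 16 mitochondrial ones, whose symbols end in 2, among 23453 gene symbols in all. The cells came from primary cultures, each made from a single C57BL/6 pup aged 0 to 1 days, shaken and treated with cytosine arabinoside against microglia and kept without serum before the experiment, and each was drawn into a pipette after its calcium response to ethanol (EtOH) had been imaged with a fluorescent indicator. Cells with a sustained response were S-type (6 cells), those with a transient response T-type (6 cells), those with mixed signals M-type (5 cells), and those with no response NR (5 cells). All cells, the NR cells included, had met the same EtOH and, at the end of imaging, ATP, so no cell stood for an unexposed state. The labels name no pup, culture or day for a cell, so each response type counts as 1 sample and no p-value is given.

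A synthetase recognises 1 amino acid and the tRNAs that carry it, and the charged tRNAs feed the ribosome. Mitochondria translate the few proteins that their own genome encodes and use a separate set of synthetases, which are encoded in the nucleus and imported. A few cytosolic enzymes serve both compartments, among them Gars and Kars, so these have no mitochondrial member in the list. Several cytosolic synthetases, with 3 scaffold proteins, form the multi-synthetase complex. Many cytosolic synthetase genes are also known targets of ATF4, the transcription factor of the amino acid and unfolded protein stress response, which binds C/EBP-ATF response elements. In astrocytes this machinery supplies protein synthesis in the soma and in the processes.

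The ATF4 element is shown here because the cytosolic and mitochondrial lists differed in it. The letters TGATGNAA, or TTNCATCA when the element lies on the other strand, were searched on both strands in the RefSeq promoters of build GRCm38.p6, each running from 250 bases before the start site to 50 after it. A promoter was at hand for 26 of the 36 members, 12 cytosolic and 14 mitochondrial. The letters stood in the promoters of 5 of the 12 cytosolic genes and of 0 of the 14 mitochondrial genes, against 3.97% of all 32851 promoters. All of these genes, *Aars*, *Gars*, *Iars*, *Tars* and *Yars*, were on the list of known ATF4 targets, 7 of whose 12 genes had a promoter. The windows around the matches are printed 5′ to 3′ along the strand of the gene, with the matching letters in capitals.
Gars, chr6:55037925-55038020, plus strand: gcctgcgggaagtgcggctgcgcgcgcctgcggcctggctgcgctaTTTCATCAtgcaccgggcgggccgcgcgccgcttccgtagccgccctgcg
Tars, chr15:11399639-11399719, minus strand: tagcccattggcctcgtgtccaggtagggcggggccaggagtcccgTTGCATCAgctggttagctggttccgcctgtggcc
Iars, chr13:49682091-49682149, plus strand: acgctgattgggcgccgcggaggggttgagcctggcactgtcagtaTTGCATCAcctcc
Yars, chr4:129189860-129189922, plus strand: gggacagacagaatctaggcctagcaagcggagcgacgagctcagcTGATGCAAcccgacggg
Aars, first of 2 matches, chr8:111033684-111033783, plus strand: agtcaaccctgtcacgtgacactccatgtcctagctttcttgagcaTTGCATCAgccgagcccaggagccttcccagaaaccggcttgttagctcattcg
Aars, second match, chr8:111033805-111033861, plus strand: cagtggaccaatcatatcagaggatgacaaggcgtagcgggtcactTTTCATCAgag
The matches in *Gars* and *Tars* began 30 and 15 bases before the start site, and the first of *Aars* 112 bases before it, while those of *Iars*, *Yars* and the second of *Aars* began 7, 3 and 9 bases after it. A match of letters is a description of these windows and was not tested for binding.

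The cells held 2937786 to 22131076 reads each. A level below is a read count divided by the size factor of the cell (median of ratios), averaged over the cells of a type. T-type cells 2 and 3 stood apart: their size factors were 0.276 and 0.183, against 0.548 to 2.31 in the other cells, and they held a read of 6319 and 7442 genes against 8647 to 13070. Genes with a read numbered 6319 to 10614 in the T-type and 9272 to 13070 in the other types, and this moved with several of the results below; its part in them was not tested. The 12 astrocyte markers took 4963 to 22088 CPM (reads scaled to the total of the cell) and all of them had a read in every type, but *Vim* held 53.6% to 79.4% of these reads by type. In T-type over S-type 7 of the 12 had a log2 ratio above 0 and 5 below, with a median of 0.1996. Over NR, 8 of the 12 markers were below 0 in the T-type, 10 in the S-type and 11 in the M-type. Of the 12719 genes 6486, 6228 and 7115 were below 0 in these comparisons. In T-type over S-type 32.2% of those genes were at least 2-fold lower and 26% at least 2-fold higher. The 3 markers at least 2-fold lower in T-type over S-type were *Slc1a2*, *S100b* and *Gfap*. Their log2 ratios over the S-type and over NR were -3.60 and -5.11, -2.23 and -5.12, and -1.96 and -3.59. The 2 markers at least 2-fold higher were *Sox9*, at 3.05 and 2.06, and *Vim*, at 1.599 and 1.296. Microglia markers took 0.491 to 262.9 CPM, highest in an NR cell, with 7 of 12 at 0 over the S-type cells. Neuron markers reached 2076 CPM (an S-type cell), oligodendrocyte lineage markers 3329 (a T-type cell), mural and fibroblast markers 7410 (an S-type cell) and endothelial markers 200.005 (a T-type cell), and *Acta2*, a mural gene, was higher than in NR by log2 ratios of 2.55, 2.08 and 1.42 in the T-, S- and M-type. The part of these markers in the results was not tested.

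All 36 synthetases passed the filter of a read in at least 5 cells, with the cytosolic genes detected far more evenly than the mitochondrial ones. Each cytosolic gene had a read in 20 to 22 cells, 13 of the 20 in all 22, and 11 of the 440 pairs of gene and cell (2.5%) were at 0. The mitochondrial genes had a read in 11 to 22 cells, with a median of 17, and 86 of 352 pairs (24.4%) were at 0. Among the mitochondrial members, *Iars2*, *Lars2* and *Rars2*, for isoleucine, leucine and arginine, had a read in all 22 cells and *Hars2*, for histidine, in 21. At the other end *Ears2*, *Mars2* and *Sars2*, for glutamate, methionine and serine, were seen in 11 cells each. The coefficient of variation over the 22 cells had a median of 1.02 for the cytosolic and 1.83 for the mitochondrial genes, beside 1.56 over all 12719 genes that passed the filter.

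**Figure D1:**
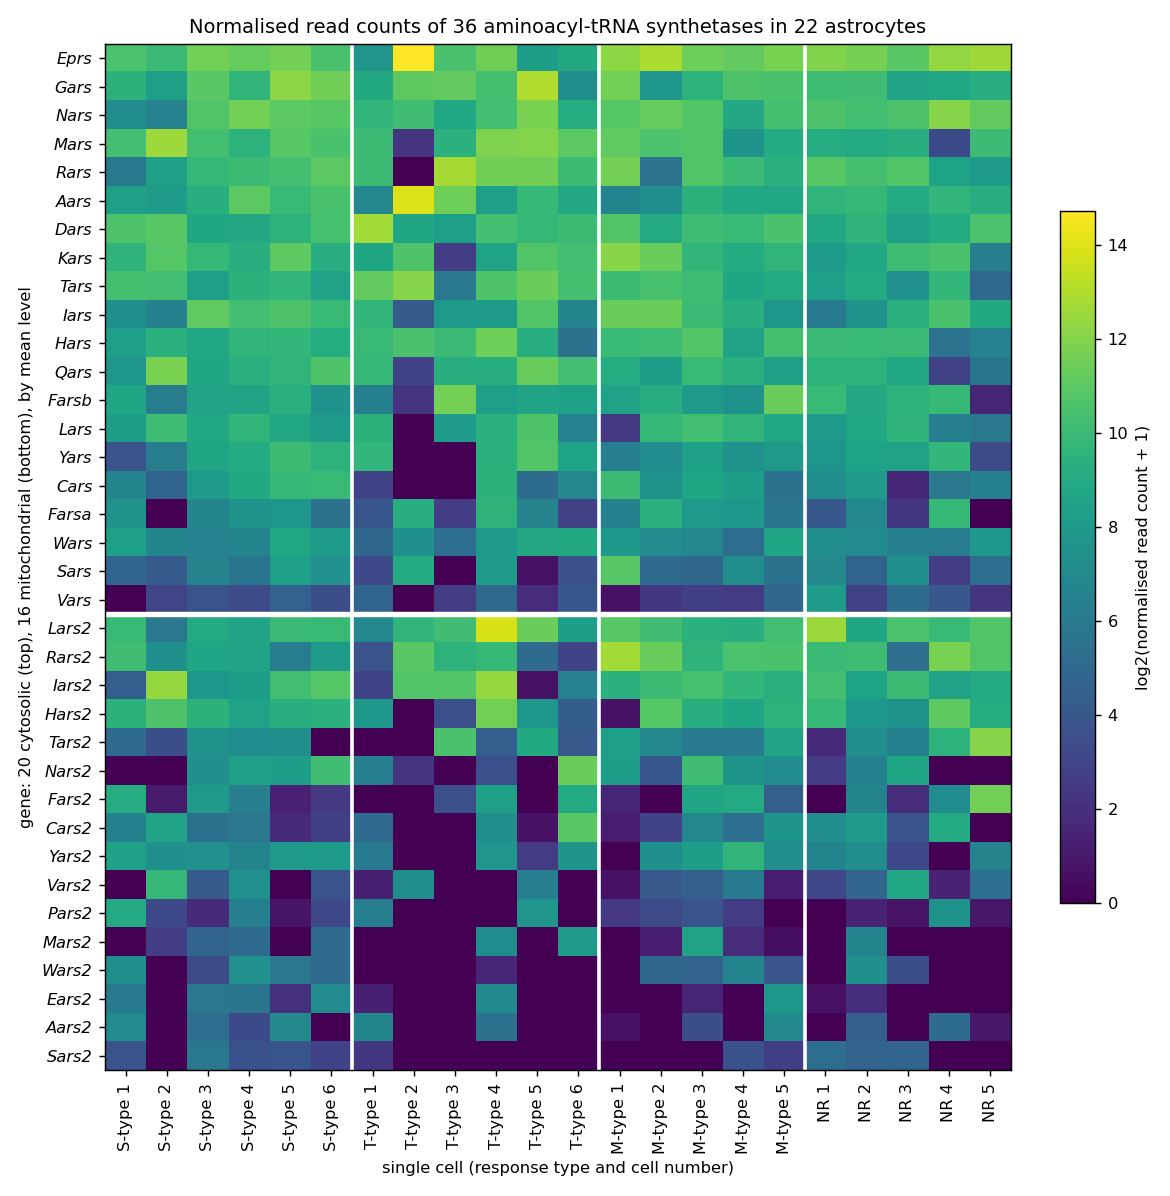
Heat map of log2(normalised read count + 1) for the 36 synthetases (rows, cytosolic above the white line and mitochondrial below, each ordered by mean level) in the 22 single cells (columns, grouped by response type). Dark cells are zeros, which made up 2.5% of the cytosolic and 24.4% of the mitochondrial entries.

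The T-type cells held the fewest mitochondrial synthetases. Of the 16 genes, 12, 5, 6, 13, 9 and 10 had a read in T-type cells 1 to 6 (median 9.5), 13, 11, 16, 16, 14 and 14 in S-type cells 1 to 6 (median 14), 11, 12, 15, 14 and 15 in M-type cells 1 to 5 (median 14) and 11, 16, 13, 10 and 10 in NR cells 1 to 5 (median 11). The T-type range of 5 to 13 overlapped the other types, and the low end was T-type cells 2 and 3. Without these cells the T-type median was 11. When every cell was thinned to the 2937786 reads of the smallest library, the medians were 6.5 in the T-type, 12 in the S-type, 13 in the M-type and 10 in the NR cells, and genes of any kind with a read also had their lowest median, 7810, in the T-type.

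The 20 cytosolic genes together took 684 to 2740 CPM in a cell and the 16 mitochondrial genes 34.0 to 2095. The mitochondrial share of all synthetase reads was 21.3% ± 8.93 (SD over 6 cells) in the S-type, 21.3% ± 18.5 in the T-type (6 cells), 25.4% ± 3.13 in the M-type (5 cells) and 31.9% ± 11.1 in the NR cells (5 cells). The T-type held both extremes of the whole series, 4.03% in cell 1 (95% exact binomial interval 3.70 to 4.38) and 51.9% in cell 4 (51.3 to 52.5); such intervals cover counting error only, since the reads carry no molecular identifiers. In T-type cell 4 *Lars2* alone made up 58.7% of the mitochondrial synthetase reads, and in T-type cell 5 it made up 72.1%. Single genes weighed as much elsewhere, with *Rars2* at 67.1% in M-type cell 1, *Iars2* at 62.0% in S-type cell 2 and *Lars2* at 61.6% in NR cell 1. The M-type cells lay close together, 4 of them between 23.4% and 24.4% and cell 4 at 30.97%.

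**Figure D2:**
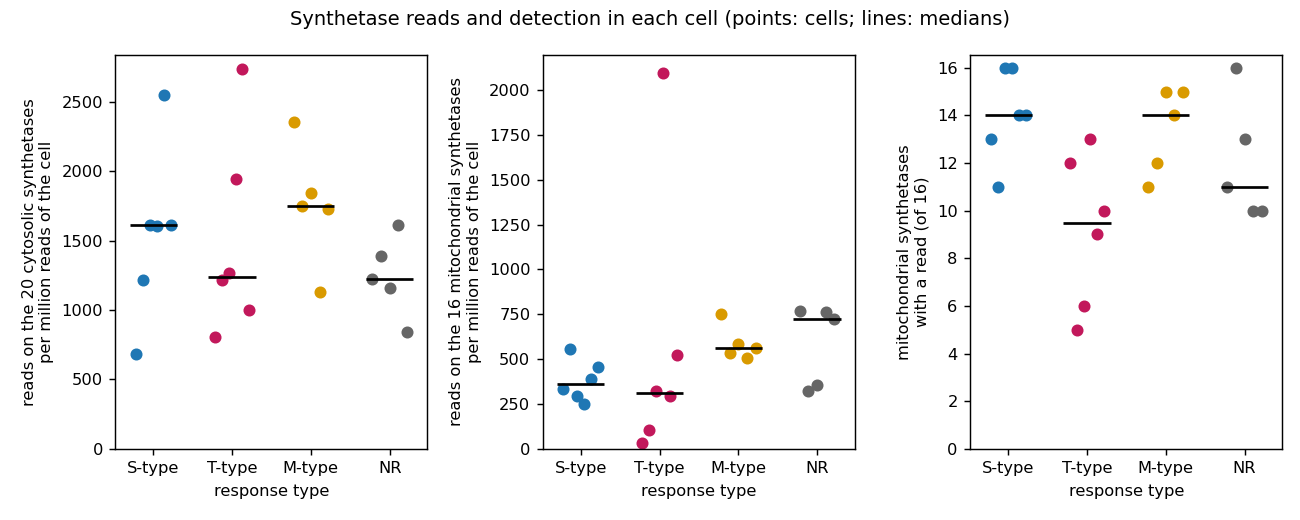
Reads on the 20 cytosolic synthetases (left) and the 16 mitochondrial synthetases (middle) in CPM, and number of mitochondrial synthetases with a read (right), by response type. Points are single cells and lines are medians; T-type cell 4 stands at 2095 CPM on mitochondrial synthetases, and the T-type median of detected mitochondrial synthetases is 9.5 against 14 in the S-type.

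Levels between genes were compared per kilobase of exon in the GENCODE annotation of GRCm38. The median was 175.5 normalised reads per kilobase for the cytosolic genes and 35.6 for the mitochondrial ones, with ranges of 4.19 to 536 and 2.99 to 437 that overlapped widely. By the mean over the 22 cells, which single cells can carry, the highest cytosolic genes were *Gars* (536), *Rars* (460) and *Mars* (441), for glycine, arginine and methionine, and lowest *Vars* (4.19), *Sars* (35.8) and *Cars* (42.7), for valine, serine and cysteine. The mitochondrial list was led by *Rars2* (437), *Hars2* (168) and *Lars2* (162.8) and closed by *Sars2* (2.99), *Mars2* (3.85) and *Ears2* (5.88). By the median cell *Hars* (376), *Gars* (375) and *Nars* (357) led the cytosolic list, and *Mars2*, *Ears2* and *Aars2* closed the mitochondrial one, with 0.163 or less. Paired by amino acid, *Mars* stood 114-fold above *Mars2*, *Eprs*, the joint enzyme for glutamate and proline, 37.1-fold above *Ears2*, and *Aars*, for alanine, 25.5-fold above *Aars2*. These folds moved with 1 cell, the first to 173.8 without M-type cell 3, the second to 25.5 without T-type cell 2 and the third to 12.7 without the same cell. *Rars* and *Rars2* had means of 460 and 437, but *Rars2* was below *Rars* in the S- and T-type (log2 of *Rars2* over *Rars* -0.99 and -1.76) and above it in the M-type and NR cells (1.19 and 0.65). *Vars2* exceeded *Vars* by the mean of every type (log2 of 0.74 to 4.11), with means of 16.3 and 4.19 over all cells, but single cells carried much of this. It had more reads than *Vars* in 12 of the 22 cells, and the median cells were at 2.70 and 1.54. S-type cell 2 held 81.4% of its summed S-type level. In the T-type the median level was 0.70 for *Vars2* and 10.1 for *Vars*, not scaled by exon length. *Lars2* exceeded *Lars* by its mean, 162.8 against 98.6, and in the T-type and NR cells (log2 of 1.52 and 1.67), but not in the S- and M-type (-0.82 and -0.30), and the median cells were at 87.4 and 81.9. *Fars2*, for phenylalanine, had a mean of 47.8 beside 46.0 for the alpha subunit *Farsa*, but the median cells were at 2.75 and 22.2. Without NR cell 5 the mean of *Farsa* was 1.99-fold above that of *Fars2*. The beta subunit *Farsb* had a mean of 236, 4.94-fold above *Fars2*, and a median cell at 147.

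Some of these levels may hold reads of a neighbour, since the libraries were stranded but the use of strand in counting was not stated. *Iars2* shares 22.9% of its exon bases with *Rab3gap2* on the opposite strand, *Aars* 14.3% with *Exosc6* on its own strand, and *Hars* 7.97% with *Hars2*, which is transcribed away from it. *Farsb*, *Fars2*, *Vars2* and *Cars2* share between 5.83% and 9.47% of theirs with a gene on the opposite strand. *Iars* shares 767 stretches of 31 bases with *Gm4849*, which is 14.5% of those in *Iars*. *Ears2* shares 1.73% with *Ubfd1*, which had 14772 reads against 1005 for *Ears2*. *Nrn1*, the neighbour of *Fars2*, had 16461 reads against 7799, while *Sgpp2*, that of *Farsb*, had 1 read. The shared bases do not bound the number of reads taken from a neighbour, which was not measured.

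**Figure D3:**
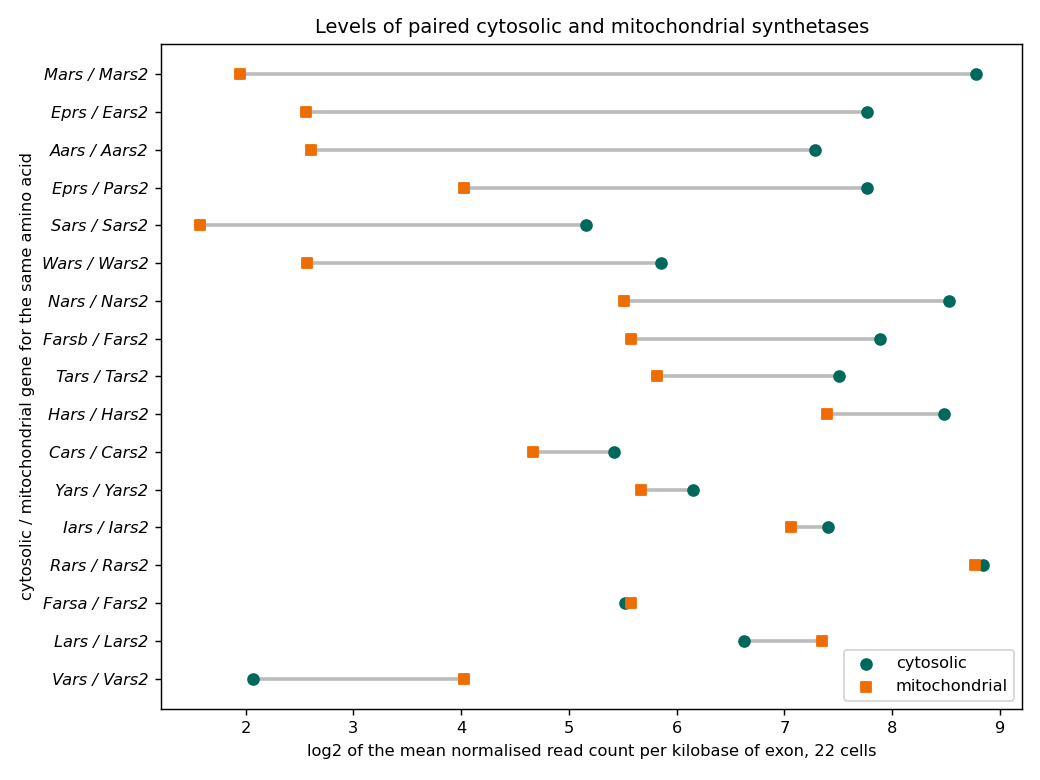
Mean normalised read count per kilobase of exon over the 22 cells (log2 axis) for each cytosolic synthetase (circles) and the mitochondrial enzyme for the same amino acid (squares). The widest gap is *Mars* over *Mars2*, 114-fold. At the bottom the means of *Fars2* (paired with *Farsa*), *Lars2* and *Vars2* lie to the right of their cytosolic partners, while *Fars2* lies to the left of *Farsb*.

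The T-type cells were then compared with the S-type, which sets a transient against a sustained calcium response. The cytosolic synthetases had a median log2 ratio (T-type over S-type) of 0.33 and the mitochondrial ones of -0.22, beside -0.069 over all genes. On mean CPM, where all genes had a median of -0.44, the cytosolic median was -0.083, still above that of all genes. The mitochondrial median was then -0.30, also above that of all genes, so its place below them depended on the scaling. Among the cytosolic genes 6 were at least 2-fold higher in the T-type and 1 lower, and among the mitochondrial genes 4 were higher and 7 lower. Such ratios were common among single cells, since 26% of all genes tested were at least 2-fold higher and 32.2% at least 2-fold lower. Of no synthetase did the cells of the 2 types fail to overlap, which happened for 0.771% of all genes. A ratio is called steady here when it was at least 2-fold, its counting interval left out 0 and its direction held without each cell in turn. This was so for 13 of the 18 synthetases past 2-fold. The share of steady ratios was not computed over all genes, so the count does not set the synthetases apart from other genes.

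**Figure D4:**
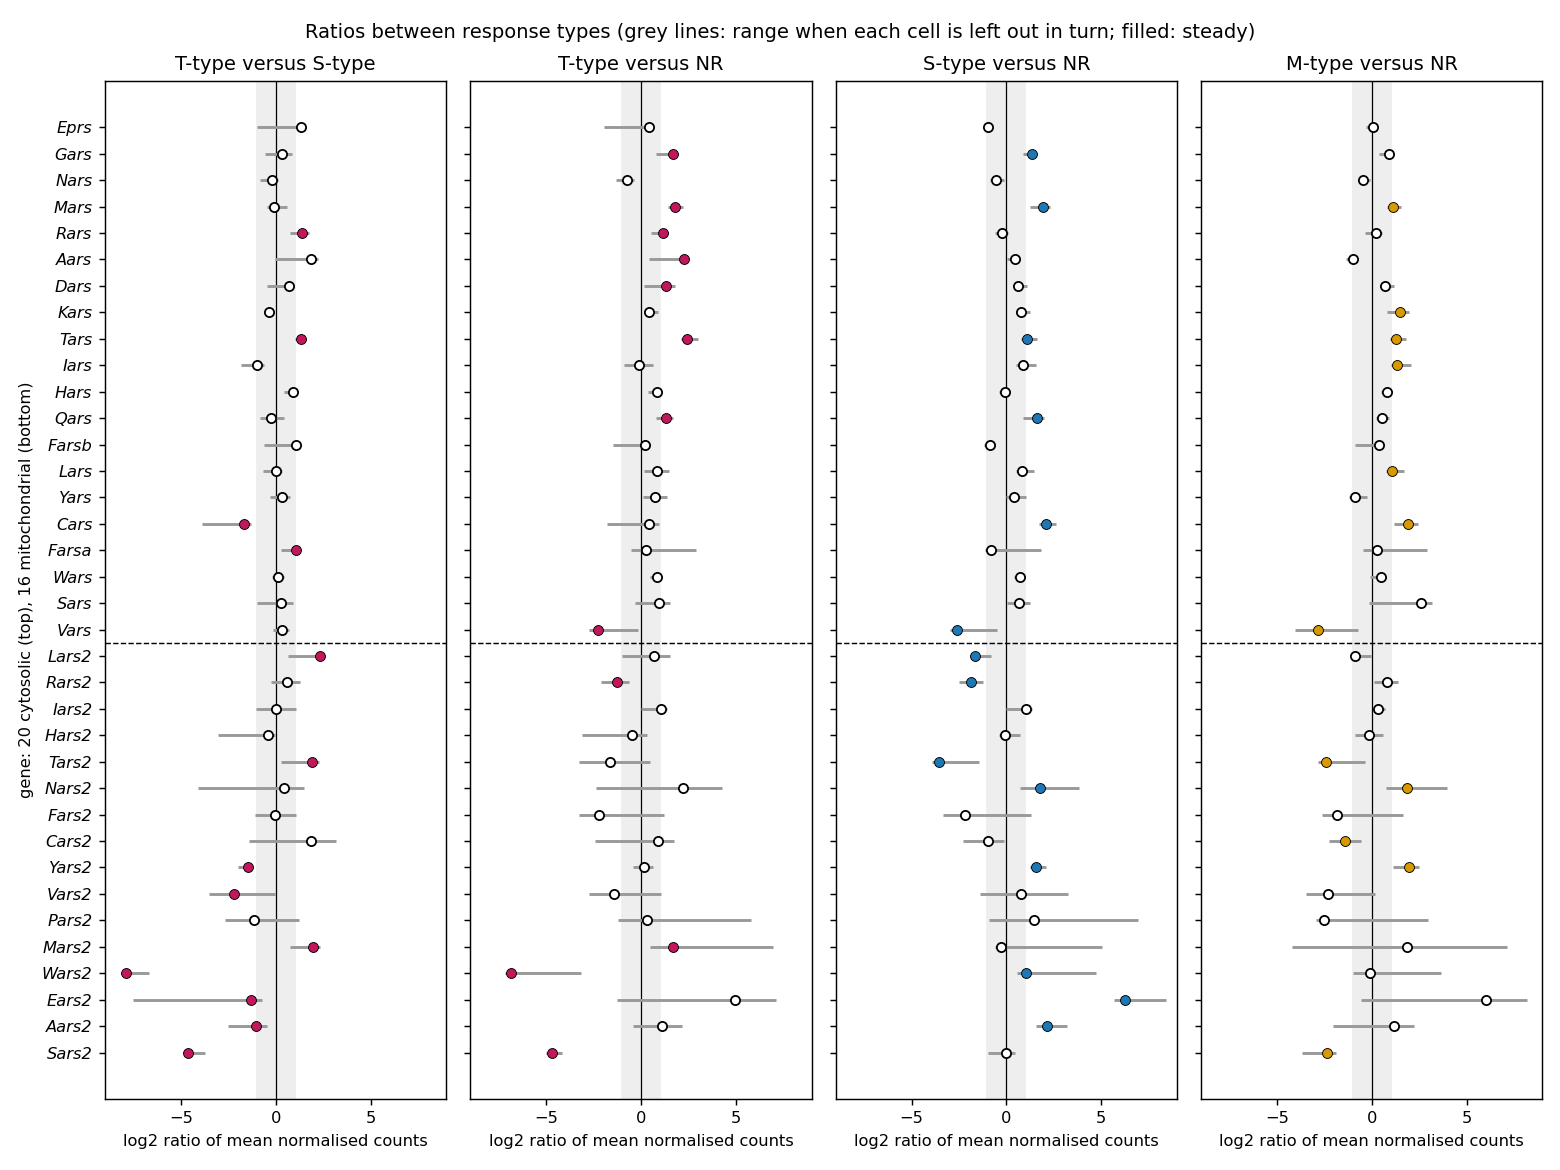
Log2 ratio of mean normalised read counts for each synthetase (rows, cytosolic above the dashed line) in 4 comparisons of response types. Grey lines span the ratios when each cell is left out in turn, the grey band marks less than 2-fold, and filled points are steady; *Wars2* and *Sars2* lie far to the left in both comparisons of the T-type.

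The largest differences were in 2 mitochondrial genes that the T-type cells hardly held. *Wars2*, for tryptophan (GRCm38 chromosome 3, 99141068 to 99239186, plus strand), had 1 read in all 6 T-type cells, in cell 4, against 509 reads in 5 of 6 S-type cells. Its level lay between 0 and 171.7 with a median of 45.3 in the S-type. The log2 ratio was -7.88 with a counting interval of -13.19 to -5.40 and -8.15 to -6.68 without each cell in turn, -6.55 when thinned and -5.80 with a pseudocount of 1. *Sars2*, for serine (GRCm38 chromosome 7, 28741992 to 28753871, plus strand), had 3 T-type reads, all in cell 1, against 15, 98, 14, 18 and 9 in 5 of the 6 S-type cells, where its level lay between 0 and 59.7 with a median of 12.8. Its log2 ratio was -4.65 (counting interval -6.94 to -3.08, -4.91 to -3.72 without each cell), and -3.06 when thinned, -3.45 with a pseudocount of 1 and -5.71 on mean CPM. S-type cell 2 held neither gene, so the types overlapped at 0. Both ratios kept their direction without T-type cells 2 and 3, at -7.30 for *Wars2* and -4.07 for *Sars2*.

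The other steady genes lower in the T-type were *Yars2*, *Cars*, *Ears2*, *Aars2* and *Vars2*. *Yars2*, for tyrosine, lay between 99.9 and 346 with a median of 208 in the S-type and between 0 and 204 with a median of 37.1 in the T-type, with no read in T-type cells 2 and 3 (log2 ratio -1.44, -1.98 to -1.17 without each cell and -0.85 without both of those). *Cars*, the only cytosolic gene at least 2-fold lower, lay between 26.01 and 988 with a median of 372 in the S-type and between 0 and 694.99 with a median of 21.3 in the T-type. Only T-type cell 4, at 694.99, reached the S-type levels above the median of that type (log2 ratio -1.69, -3.87 to -1.32 without each cell). *Ears2* had 414 reads in 5 S-type cells and 70 in 2 T-type cells, 69 of them in cell 4 (-1.30, and -7.54 without cell 4). *Aars2*, for alanine, gave -1.02, and *Vars2*, for valine, -2.21, which came to -0.046 without S-type cell 2 and its level of 883.

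Among the genes higher in the T-type, *Tars* and *Rars* did not rest on a single cell. *Tars*, for threonine (GRCm38 chromosome 15, 11382301 to 11399665, minus strand), lay between 60.0 and 4156 with a median of 2004 in the T-type and between 317 and 1337 with a median of 771 in the S-type. All T-type cells except cell 3, at 60.0, were at 1323 or more, near or above the highest S-type cell (log2 ratio 1.36, 1.03 to 1.61 without each cell). *Rars*, for arginine, lay between 0 and 6714 with a median of 2006 in the T-type, with no read in cell 2, and between 61.3 and 2036 with a median of 983 in the S-type (1.37, 0.76 to 1.73). *Farsa*, the alpha subunit for phenylalanine, gave 1.04, and 0.28 without T-type cell 4, with a T-type median of 53.7 below the S-type median of 145. *Lars2* gave the largest ratio, 2.33, but its level was 14732 in T-type cell 4 and at most 2647 in the other T-type cells, and the ratio without cell 4 was 0.63. *Tars2* and *Mars2* likewise had one leading T-type cell each, cell 3 with 73.5% and cell 6 with 64.2% of the summed level (1.92 and 1.96), and gave 0.27 and 0.74 once that cell was left out. Their T-type medians, 18.04 and 0, lay below the S-type medians of 87.4 and 15.8, and *Mars2* had reads in 2 of 6 T-type cells.

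The other 5 genes past 2-fold changed direction with 1 cell. *Aars* and *Eprs* stood at 15943 and 27069 in T-type cell 2, and their ratios of 1.84 and 1.35 came to -0.033 and -0.98 without it. *Farsb*, the beta subunit for phenylalanine, rested on T-type cell 3, *Cars2* on T-type cell 6 and *Pars2*, for proline, on S-type cell 1.

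**Figure D5:**
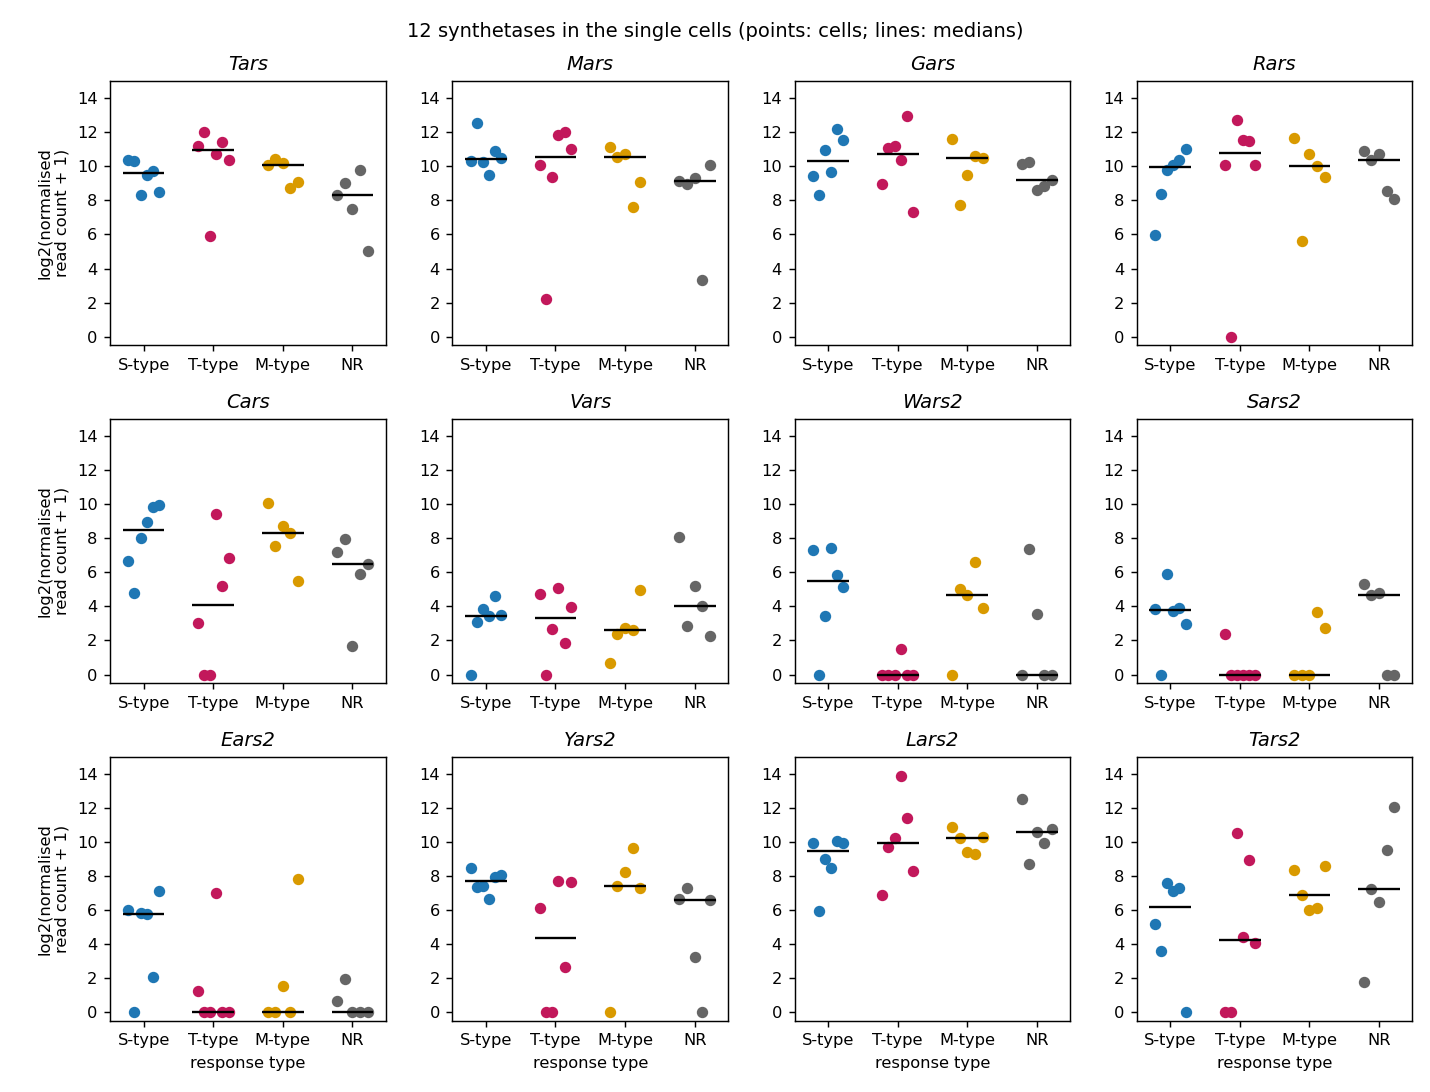
Log2(normalised read count + 1) of 12 synthetases in the single cells of each response type; points are cells and lines are medians. In the T-type 5 of 6 cells have no read of *Wars2* or of *Sars2*, while *Tars* and *Mars* lie lowest by median in the NR cells.

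Within pairs for the same amino acid, the mitochondrial and the cytosolic gene often differed in their T-type over S-type ratio. The gap in log2 ratio, mitochondrial minus cytosolic, was -8.02 for tryptophan, where *Wars* itself was level at 0.14, and -4.93 for serine, where *Sars* was at 0.28. It was -2.85 for alanine, -2.65 and -2.48 for glutamate and proline, which share *Eprs*, and -2.54 for valine, with *Vars* at 0.33. The gap went the other way for cysteine (3.55), leucine (2.34) and methionine (2.07). Without each cell in turn the gap ranged from -8.40 to -6.80 for tryptophan and from -5.62 to -3.41 for serine. One cell brought it to -0.72 for alanine, -0.061 for glutamate and 0.12 for proline (each without T-type cell 2), to -0.29 for valine (without S-type cell 2), to 0.21 for cysteine and 0.87 for methionine (without T-type cell 6) and to 0.70 for leucine (without T-type cell 4).

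Against the NR cells, the T-type had a median log2 ratio of 0.83 over the cytosolic and 0.24 over the mitochondrial synthetases, beside -0.051 over all genes. Thinned to the same number of reads, the mitochondrial median was -0.14. In the cytosolic list 17 of 20 genes had a ratio above 0, beside 6233 of all 12719 genes tested. At least 2-fold higher were 7 cytosolic genes and lower 1, and in the mitochondrial list 5 were higher and 6 lower. Of all genes tested 28.6% were higher and 32.4% lower by that much. No synthetase separated the cells of the types, against 0.991% of all genes. *Tars* led the steady genes: its NR levels were 317, 517, 177, 869.6 and 31.5 in cells 1 to 5 and its T-type median was 2004, a log2 ratio of 2.43 (2.10 to 2.98 without each cell in turn and 2.41 without T-type cells 2 and 3). T-type cell 3 was the only T-type cell below the highest NR cell. *Mars*, for methionine, had NR levels of 552, 504, 623, 8.97 and 1091 and lay between 3.63 and 4123 with a median of 1596 in the T-type (1.81, 1.44 to 2.21), with the low cells being NR cell 4 and T-type cell 2. *Gars*, for glycine, had NR levels of 1132, 1205, 388, 459.9 and 577 and a T-type median of 1753 (1.68, 0.79 to 1.93). *Qars*, *Dars* and *Rars*, for glutamine, aspartate and arginine, gave 1.33, 1.31 and 1.15. For *Dars* the ratio was 0.16 without T-type cell 1, whose level was 6625. *Aars* gave 2.27, but 0.40 without T-type cell 2 and -0.63 without T-type cells 2 and 3, so its direction rested on those.

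In the other direction, *Wars2* and *Sars2* were again lowest in the T-type. *Wars2* had 304 reads in the NR cells, with levels of 0, 163.9, 10.8, 0 and 0, so 3 NR cells were at 0 like 5 of the T-type (log2 ratio -6.84, counting interval -12.15 to -4.36, -3.15 without NR cell 2, -6.00 when thinned and -4.78 with a pseudocount of 1). *Sars2* had NR levels of 38.9, 24.4, 26.6, 0 and 0, and a log2 ratio of -4.67 (counting interval -6.97 to -3.10, -5.00 to -4.18 without each cell, -3.07 when thinned, -3.48 with a pseudocount of 1 and -5.65 on mean CPM). *Rars2* had NR levels of 1050.2, 1126, 42.4, 3538 and 1713 and lay between 7.05 and 2009 with a median of 388 in the T-type (-1.26). *Vars* gave -2.27, resting on NR cell 1. Its NR levels were 266, 6.24, 35.2, 14.95 and 3.71, and without cell 1 the ratio was -0.16. *Mars2* gave 1.69, with all 178 of its NR reads in cell 2. The other 7 genes past 2-fold, *Ears2*, *Nars2*, *Aars2*, *Iars2*, *Fars2*, *Tars2* and *Vars2*, all mitochondrial, changed direction without 1 cell.

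The S-type cells gave medians of 0.64 for the cytosolic and 0.37 for the mitochondrial synthetases against NR, beside 0.029 over all genes. At least 2-fold higher were 5 cytosolic and 7 mitochondrial genes, and lower 1 and 4, beside 25.1% and 22.4% of all genes tested; the cells overlapped for every synthetase, as they did for all but 0.409% of the genes. *Ears2*, the mitochondrial enzyme for glutamate (GRCm38 chromosome 7, 122037213 to 122067263, minus strand), gave the largest ratio. It had 6 reads in 2 of 5 NR cells and 414 in 5 of 6 S-type cells, where it lay between 0 and 139 with a median of 54.3 (log2 ratio 6.25, counting interval 5.11 to 7.70, 5.67 to 8.43 without each cell). The S-type cell without a read, cell 2, was at 0 with NR cells 3 to 5. *Yars2* had NR levels of 98.3, 155.98, 8.63, 0 and 96.4, and all S-type cells lay at 99.9 or more (1.58, 1.25 to 2.08). *Cars* had NR levels of 146, 243, 2.16, 58.0 and 89.0 against an S-type median of 372 (2.09, 1.72 to 2.64). *Mars* lay between 718 and 6002 with a median of 1355 in the S-type, where 5 of 6 cells were above every NR cell (1.91, 1.24 to 2.31). *Qars* gave 1.599, *Gars* 1.34 and *Tars* 1.07. *Aars2* and *Nars2*, for alanine and asparagine, gave 2.12 and 1.76, each with 2 S-type cells at 0.

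Lower in the S-type than in NR cells were *Tars2*, *Vars*, *Rars2* and *Lars2*. *Rars2*, for arginine, had an S-type median of 325, and 4 of 5 NR cells exceeded 1000 normalised reads (-1.86, -2.51 to -1.25). *Lars2* had NR levels of 5736, 422, 1522, 958 and 1696 and lay between 59.6 and 1069 with a median of 736 in the S-type (-1.66, -0.81 without NR cell 1). *Tars2* had NR levels of 2.43, 150.9, 88.5, 719 and 4182, so that its ratio of -3.55 was -1.46 without NR cell 5. *Vars*, at -2.60, again rested on NR cell 1 (-0.48 without it). *Fars2*, *Iars2* and *Pars2* changed direction without NR cell 5, S-type cell 2 and S-type cell 1.

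The M-type cells had a cytosolic median of 0.61 and a mitochondrial median of -0.12 against NR, where all genes had -0.20. There were 7 cytosolic genes at least 2-fold higher and 1 lower, and 5 mitochondrial genes higher and 6 lower, beside 19.8% and 28.1% of all genes tested, and none separated the cells, against 0.598% of all genes. *Kars*, for lysine, had M-type levels of 4463, 2584, 817, 536 and 788 in cells 1 to 5 and NR levels of 263, 437, 1128, 1417 and 82.5 (log2 ratio 1.46, 0.83 to 1.94 without each cell). *Iars*, for isoleucine, had M-type levels of 2663, 2683, 1049, 626 and 222 and NR levels of 69.8, 188, 646, 1444 and 498 (1.35, 1.00 to 2.05). In both genes M-type cells 1 and 2 were highest of the types compared. *Tars* had M-type levels of 1076, 1384, 1146, 419.7 and 542 (1.26, 0.96 to 1.81), and *Mars* of 2249, 1497, 1666, 197 and 533 (1.14, 0.81 to 1.54). *Cars* had M-type levels of 1072, 183.5, 424, 309.7 and 44.5 (1.92), and *Lars*, for leucine, of 4.38, 884, 1222, 789.6 and 462 (1.09). M-type cell 1 held the highest level of *Cars* and nearly no *Lars*. *Yars2* had M-type levels of 0, 168, 294, 796 and 152.9 (1.97, 1.10 to 2.47), and *Nars2* gave 1.89.

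Lower in the M-type than in NR cells were *Vars* (-2.83, -0.71 without NR cell 1), *Tars2* (-2.43, -0.33 without NR cell 5), *Sars2* and *Cars2*. *Sars2* had M-type levels of 0, 0, 0, 11.9 and 5.62, 3 of 5 cells at 0 against 2 of 5 NR cells (-2.36, -3.68 to -1.86). *Cars2*, for cysteine, had M-type levels of 1.25, 7.002, 113, 41.0 and 198 and NR levels of 148, 268, 13.7, 538 and 0 (-1.43, -2.26 to -0.58). The remaining 7 genes past 2-fold, *Sars*, *Aars2*, *Ears2*, *Fars2*, *Mars2*, *Pars2* and *Vars2*, changed direction with 1 cell. *Sars* was at 1921 in M-type cell 1 and at most 147 in the others, so its ratio of 2.61 was -0.16 without that cell, and *Ears2* had 511 of its 515 M-type reads in cell 5 (6.01, -0.55 without it).

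The 3 comparisons with NR share the same 5 NR cells, so a value that recurs in them is no independent sight of it. *Tars* had log2 ratios of 2.43, 1.07 and 1.26 in the T-, S- and M-type and *Mars* of 1.81, 1.91 and 1.14; NR cells 5 and 4 were respectively the lowest for these genes. *Gars* had 1.68, 1.34 and 0.91. *Eprs*, the most read synthetase of the NR cells, had 0.39, -0.96 and 0.042, where the first rested on T-type cell 2 and was -1.94 without it, the T-type median being 956 and that of NR 3854.

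Grouped by known roles, the 8 synthetases of the multi-synthetase complex (*Dars*, *Eprs*, *Iars*, *Kars*, *Lars*, *Mars*, *Qars* and *Rars*) had median log2 ratios of -0.058 in T-type over S-type and of 0.99, 0.81 and 0.89 in the T-, S- and M-type over NR, the order kept below. Of these genes 2, 4, 2 and 4 were at least 2-fold higher and 0 lower in each. The scaffold genes *Aimp1* and *Eef1e1*, the most read of the 3, gave 0.69 and 0.39, then 0.12 and 1.56, -0.57 and 1.17, and 0.23 and 1.25. The 12 cytosolic synthetases known as ATF4 targets had medians of 0.21, 0.83, 0.77 and 1.00, and the other 8 cytosolic ones of 0.82, 0.64, -0.15 and 0.45. The 20 further genes of the ATF4 programme had medians of -0.16 (0.59 without S-type cell 5), 0.60, 0.89 and 0.30, with 4, 8, 9 and 5 of the 20 at least 2-fold higher and 5, 3, 2 and 5 lower, where 26%, 28.6%, 25.1% and 19.8% of all genes were higher and 32.2%, 32.4%, 22.4% and 28.1% lower. The most read of them, *Psat1*, a serine synthesis enzyme, gave -0.44, 0.39, 0.83 and -0.29, and *Atf5*, a related transcription factor, 3.23, 2.94, -0.29 and -1.21. Class I and class II synthetases, which differ in the fold of the catalytic domain, had medians of -0.0075 and 0.34 in T-type over S-type.

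Of the 4 other genes of mitochondrial charging, 3 were at least 2-fold lower in the T-type. Mitochondria make glutaminyl-tRNA with an amidotransferase encoded by *Qrsl1*, *Pet112* and *Gatc*, and *Mtfmt* formylates the initiator methionyl-tRNA. In T-type over S-type these 4 genes had a median of -2.78, 3 of them at least 2-fold lower and 0 higher, and in T-type over NR of -2.43, again with 3 lower and 0 higher, where 32.2% and 32.4% of all genes were lower by that much. The medians ranged from -3.44 to -2.53 and from -2.78 to -1.33 without each cell in turn, and *Gatc* did not reach 2-fold. The part of the lower number of genes with a read in the T-type cells was not tested. *Qrsl1*, the most read, had 3613 reads in the S-type and 359 in the T-type (log2 ratio -1.99), and *Gatc* 1318 and 850 (-0.61). In S-type over NR the median was 0.35 (-0.24 to 1.68 without each cell) and in M-type over NR 0.70 (0.30 to 1.63). *Tarsl2*, a relative of *Tars* that is not among the 36, was at 1.27 in T-type over S-type. In T-type over S-type 26% of all genes were at least 2-fold higher and 32.2% lower, the shares to set beside the counts that follow. The 5 cytosolic elongation factors had a median of 1.36, with 4 of them at least 2-fold higher and 0 lower. The most read were *Eef1a1* (1.36) and *Eef1b2* (1.64). The 4 mitochondrial ones had a median of 0.41, with 2 higher and 0 lower, *Gfm1* at 1.27 and *Tufm* at -0.69. The 7 genes of tRNA maturation and proofreading had a median of 0.57, with 3 higher and 2 lower, *Prorsd1* at 1.41 and *Dtd1* at 0.57.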

How the data were processed

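RNA of each collected cell was amplified linearly and sequenced without molecular identifiers. The authors trimmed the reads, aligned them with STAR to GRCm38 and deposited raw counts of uniquely aligned exonic reads per gene symbol (VERSE, a form of HTSeq); tool versions are not given in the sources used here. All 22 columns matched a sample label. Each cell was scaled by a size factor (median of ratios), and the 12719 genes seen in 5 or more cells were kept. A ratio is the log2 ratio of mean normalised counts of 2 types, recomputed without each cell. Its counting interval is the 95% exact binomial interval of the pooled raw reads of the 2 types, shifted onto that ratio. It leaves out the unequal weight of cells in the mean and their spread, so it is too narrow for the ratio. For *Aars* in T-type over S-type the pooled reads were 7347 and 7280, yet the shifted interval was 1.79 to 1.88. A level of 0 was set to the floor of 3 reads per type. No test was made, because the pup and culture behind each cell are not in the labels. Named with values were steady ratios, up to 8 per direction, the 3 highest and 3 lowest genes per kilobase in each list, the 2 most read genes of each other list and pairs differing by at least 2 in log2; others were named after their values were seen. The members and lists were chosen with earlier results of these data known. Alternatives were TMM factors (edgeR 4.0.16, R 4.3.3), mean CPM, thinning, a pseudocount of 1, no filter and cells left out (for pairs and other lists added after seeing the data). Scripts ran in Python 3.11.15 with NumPy 2.4.6, pandas 2.3.3 and SciPy 1.17.1 and were tested on simulated data.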

Additional observations from a re-analysis of the deposited data

Results flagged for a closer look

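In 19 of 120 groups of 5 or 6 cells 1 cell lay apart from the others of its type by Dixon's criterion. Its usual rate of about 1 in 20 groups is for normally distributed values. Counts with many zeros are not such values, and the synthetases were chosen by their ratios in these data. The number of flags can therefore not be set against chance. The criterion was applied to the depth and share measures and to log2(normalised read count + 1) of 25 synthetases.

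T-type cell 4 gave 0.210% of its reads to mitochondrial synthetases, where the other T-type cells gave 0.0034% to 0.0521%, and M-type cell 4 had a mitochondrial share of synthetase reads of 30.97% beside 23.4% to 24.4%. Of the values below their type, 5 were in T-type cells 2 and 3 among cytosolic genes that the other T-type cells held at high levels: *Mars* at 2.21 in T-type cell 2 (others 9.38 to 12.0), *Qars* at 3.04 in the same cell (9.21 to 11.3), *Kars* at 2.69 in T-type cell 3 (8.61 to 10.7) and *Tars* at 5.93 in that cell (10.4 to 12.0). *Rars* was at 0 in T-type cell 2 (10.1 to 12.7). In other types *Mars* was at 3.32 in NR cell 4 (8.98 to 10.1), *Lars* at 2.43 in M-type cell 1 (8.85 to 10.3), *Yars2* at 0 in M-type cell 1 (7.27 to 9.64), *Rars2* at 5.44 in NR cell 3 (10.0 to 11.8), *Farsa* at 0 in S-type cell 2 (5.55 to 7.72) and *Vars* at 0 in S-type cell 1 (3.10 to 4.62).

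Single genes above their type were *Ears2*, *Mars2*, *Sars2* and *Wars2*, mitochondrial genes with a read in 11 or 12 of the 22 cells. *Ears2* stood at 6.99 in T-type cell 4 (others 0 to 1.27) and at 7.79 in M-type cell 5 (0 to 1.52), and *Mars2* at 8.49 in M-type cell 3 (0 to 1.85) and at 6.67 in NR cell 2, with the other NR cells at 0. *Sars2* at 2.38 in T-type cell 1 and *Wars2* at 1.498 in T-type cell 4 were the sole reads of these genes in the T-type.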

How the results depend on the processing

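Across the 4 comparisons 73 ratios of single synthetases were at least 2-fold, of which 51 kept their direction without each cell in turn and 22 did not. The same share was not computed over all genes. TMM factors and thinning turned 0 of the 73, and mean CPM turned 1, *Eprs* in T-type over S-type, to -0.20. A pseudocount of 1 and no filter cannot change the direction of these ratios, so that they turned 0 shows nothing. Sizes moved more than directions. In T-type over S-type the members at least 2-fold higher fell from 10 to 7 with TMM factors and to 5 on mean CPM. Those at least 2-fold lower went from 8 to 6 and to 9. On mean CPM *Tars* came to 0.81, *Farsa* to 0.39 and *Aars* to 0.38. Leaving out T-type cells 2 and 3, chosen after seeing the data, turned 4 of 37: *Aars* to -1.07, *Eprs* to -1.10 and *Farsb* to -0.29 against the S-type, and *Aars* to -0.63 against NR. The cause was not tested. No paired analysis was possible because the replicate numbers only follow sample order and no result comes from a test.

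The cytosolic median in T-type over S-type was 0.15 when thinned and -0.083 on CPM, and over NR 0.62 when thinned and 0.39 on CPM; the median of all genes also fell on CPM, to -0.44 and -0.45. The mitochondrial median in T-type over S-type was -0.33 when thinned and -0.30 on CPM, the latter above the -0.44 of all genes. In T-type over NR it was -0.14 when thinned, 0.026 on CPM and 0.82 without T-type cells 2 and 3. In S-type over NR it was 0.25 with TMM factors and 0.23 on CPM, and in M-type over NR -0.37 when thinned, where the cytosolic median was 0.70 with TMM factors and 0.75 on CPM. With the reads of a type pooled, the mitochondrial share was 20.1% in the S-type, 25.0% in the M-type and 32.4% in NR cells.

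Leaving out each cell in turn, the cytosolic medians ranged from 0.12 to 0.75 (T-type over S-type), 0.58 to 0.95 (T-type over NR), 0.41 to 0.73 (S-type over NR) and 0.50 to 0.80 (M-type over NR), and the mitochondrial ones from -0.96 to -0.0066, -1.10 to 0.51, -0.046 to 0.70 and -0.73 to 0.40. The mitochondrial share ranged from 19.1% to 22.97% in the S-type, 15.2% to 24.8% in the T-type, 24.0% to 25.9% in the M-type and 28.3% to 35.1% in NR cells. The ratios that turned ranged, in T-type over S-type, for *Aars* from -0.033 to 2.22, *Eprs* -0.98 to 1.61, *Farsb* -0.61 to 1.34, *Cars2* -1.43 to 3.18 and *Pars2* -2.67 to 1.23. In T-type over NR they ranged for *Aars2* from -0.40 to 2.18, *Ears2* -1.29 to 7.13, *Fars2* -3.29 to 1.22, *Iars2* -0.021 to 1.35, *Nars2* -2.36 to 4.26, *Tars2* -3.29 to 0.47 and *Vars2* -2.77 to 1.03. In S-type over NR they ranged for *Fars2* from -3.33 to 1.28, *Iars2* -0.010 to 1.36 and *Pars2* -0.90 to 6.93, and in M-type over NR for *Sars* from -0.16 to 3.18, *Aars2* -2.02 to 2.25, *Ears2* -0.55 to 8.20, *Fars2* -2.61 to 1.64, *Mars2* -4.19 to 7.13, *Pars2* -2.94 to 2.96 and *Vars2* -3.44 to 0.15. The floor of 3 reads over a type came to 0.319 to 0.622 normalised reads.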
